A study of Mus musculus with 4 samples.

Results

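Of the 611 mouse miRNA entries on the array, 4 carry the name of a miRNA whose sequence lies in ribosomal spacer RNA or in transfer RNA rather than in a hairpin of its own: mmu-miR-712, mmu-miR-715, mmu-miR-720 and mmu-miR-805. They were taken by entry name from the scanner output, by a rule that uses no measured value. The study read liver RNA of male WT mice and male *Clock* mutant mice (Clock△19) aged 6 to 8 weeks, kept for 2 weeks under 12 h light and 12 h dark with free access to food. Mice were killed at ZT2 and ZT14, that is 2 h and 14 h after lights on. The RNA of 3 mice was pooled for each genotype and time, so WT at ZT2, mutant at ZT2, WT at ZT14 and mutant at ZT14 each had 1 Agilent array read in 1 colour and no replicate. The mutant allele was present in the whole animal, and in such bulk liver RNA fewer cells of a type and less RNA per cell cannot be told apart.

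A miRNA is normally cut in 2 steps from a hairpin transcript, by Drosha in the nucleus and Dicer in the cytoplasm, and is then carried by an Argonaute protein to the mRNAs that match its seed. Ribosomal RNA is made as 1 long precursor whose spacers are removed and degraded as the ribosome matures, and mmu-miR-712 is known as a product of an internal transcribed spacer of that precursor, with a described role in arterial endothelium under disturbed flow. mmu-miR-720 is known as a fragment of a transfer RNA, and was removed from the miRNA registry for that reason. In mouse liver, the making of ribosomes follows a daily rhythm set by the clock and by feeding.

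Sequences of mmu-miR-712, mmu-miR-715, mmu-miR-720 and mmu-miR-805 are not used here. Those printed are RefSeq sequences of array entries described beside them, where the entry's name is that of a mature RefSeq miRNA. The first 4 are detected entries whose numbers lie near those of mmu-miR-712 and mmu-miR-720, and the last is among the 3 miRNAs whose levels ran most like those of mmu-miR-720. Capitals mark the seed, bases 2 to 8 from the 5′ end, and the seeds printed are all different. Positions are those of RefSeq on GRCm38.p6.
mmu-miR-690 (chr16:28599940-28599961, minus strand): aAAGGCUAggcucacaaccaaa
mmu-miR-697 (chr4:124731768-124731788, plus strand): aACAUCCUgguccuguggaga
mmu-miR-705 (chr6:85336341-85336360, minus strand): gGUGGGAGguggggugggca
mmu-miR-706 (chr6:120034290-120034311, minus strand): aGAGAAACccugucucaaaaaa
mmu-miR-362-3p (chrX:7241984-7242005, minus strand): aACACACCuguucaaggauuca

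The 4 entries fell into 3 states. mmu-miR-720 and mmu-miR-805 were detected on all 4 arrays, mmu-miR-712 was detected on the 2 arrays at ZT2 only, and mmu-miR-715 was detected on none. Detection is the call of the scanner software, and on every array it was equal to having at least 1 probe whose total signal exceeded 3 times its error (0 exceptions over 2600 pairs of entry and array). Each entry has 20 spots, which were 10 spots for each of 2 probes for mmu-miR-720 and 5 spots for each of 4 probes for the other 3. Over the whole array, 123 mouse miRNAs were detected on all 4 arrays and 195 on at least 1. mmu-miR-122, the miRNA that marks hepatocytes, was detected on all 4 arrays at 52215 and 55936 units in WT and mutant at ZT2, and at 29413 and 52644 units in WT and mutant at ZT14. Levels of an entry are the mean of its probes in units of processed signal, that is background-subtracted intensity. They were scaled by dividing by the array's 75th percentile over the 123 miRNAs, which was 537 for WT and 503 for mutant at ZT2, and 339.9 for WT and 536 for mutant at ZT14. The WT array at ZT14 had the lowest 75th percentile, although its spike-in control probes were the brightest, with a geometric mean of 6738 units against 6001.5 to 6354 units on the other arrays.

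mmu-miR-720 was the strongly measured entry, with all spots of both of its probes well above background and 0 of them saturated. Before scaling its level was 8619 units in WT against 8605 units in the mutant at ZT2, and 4266 units in WT against 4870.4 units in the mutant at ZT14. The genotypes lay together at ZT2, and both arrays at ZT14 lay below both arrays at ZT2. On each probe alone, too, both arrays at ZT14 lay below both arrays at ZT2, with WT at ZT14 the lowest. Probe A_54_P2037 averaged 14641 ± 210.4 units in WT against 14643 ± 257 in the mutant at ZT2; at ZT14 it was 7348 ± 129 in WT against 8339 ± 159 in the mutant (SD, n = 10 spots). Its spots ran from 14286 to 14949 units in WT, and from 14193 to 15077 in the mutant at ZT2, so the genotypes overlapped. At ZT14 they ran from 7123 to 7519.5 units in WT and from 8095 to 8510.1 in the mutant, without overlap. Probe A_54_P2036 averaged 2596 ± 28.8 and 2568 ± 38.9 units at ZT2 in WT and mutant (SD, n = 8 spots, after 2 outlier spots were left out on each array). At ZT14 it averaged 1185 ± 33.6 units in WT (n = 9 spots) and 1401 ± 65.3 in the mutant (n = 10 spots), again without overlap of the spots. Spots of 1 array repeat 1 pool of RNA, so their SD measures the technical spread and leaves out differences between mice.

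**Figure D1:**
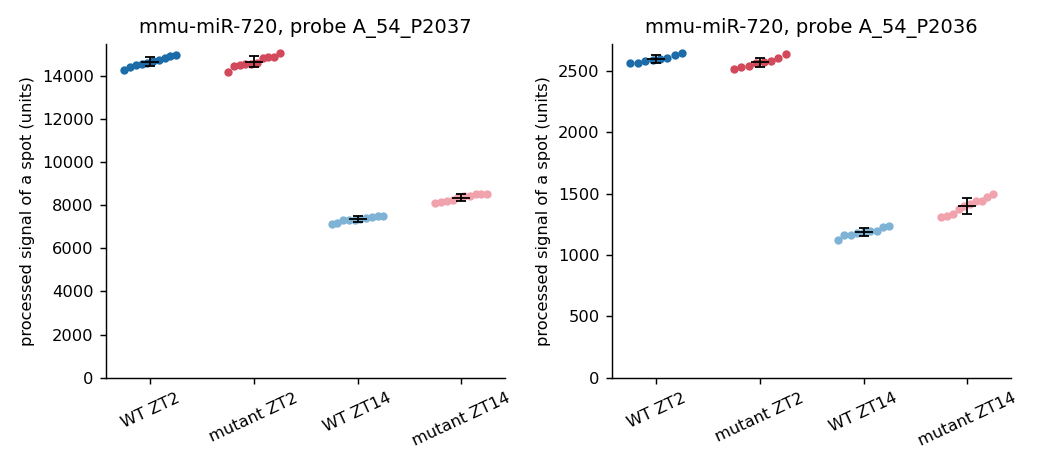
Processed signal of every spot of mmu-miR-720 without an outlier flag (vertical axis, units, from 0), by array, for its 2 probes in 2 panels; black marks are the mean and the SD of the spots. The WT and mutant arrays overlap at ZT2 on probe A_54_P2037, and at ZT14 the mutant spots (mean 8339) lie above the WT spots (mean 7348) before scaling.

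Scaling changed the direction of the genotype difference of mmu-miR-720 at ZT14. The scaled log2 ratio of mutant to WT was 0.09 at ZT2 (spot SD 0.040; -0.0022 without scaling) and -0.47 at ZT14 (spot SD 0.048), where the spot SD is the root mean square of the SDs of spots within probes, combined over the 2 arrays. Without scaling, the ratio at ZT14 was 0.19. At ZT14 the median of the unscaled log2 ratios of the 123 miRNAs was 0.63, so mmu-miR-720 stood below that median on either scale. Relative to the median of the scaled ratios it was at 0.16 at ZT2 and -0.43 at ZT14. Among the miRNAs detected on both arrays, 115 of 160 had a lower ratio at ZT2, and 14 of 123 at ZT14.

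The level of mmu-miR-720 was lower at ZT14 than at ZT2 on both scales and in both genotypes. The scaled log2 ratio of ZT14 to ZT2 was -0.36 in WT (spot SD 0.041) and -0.91 in the mutant (spot SD 0.047). The unscaled values were -1.01 and -0.82, so that the genotype with the larger difference changed with the scaling. In WT 24 of 137 miRNAs detected on both arrays had a lower scaled ratio, and in the mutant 9 of 140. The median scaled log2 ratio over those miRNAs was -0.12 in WT against -0.16 in the mutant. The 4 comparisons share arrays, each array standing in 2 of them, and their values are not independent.

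mmu-miR-712, the ribosomal spacer entry, rested on 1 probe. Probe A_54_P2111 averaged 31.9 ± 3.80 units in WT against 25.6 ± 3.75 in the mutant at ZT2; at ZT14 it was 6.37 ± 1.84 in WT against 15.5 ± 3.23 in the mutant (SD, n = 5 spots). Its total signal was 5.88 and 4.41 times its error at ZT2 in WT and mutant, above the limit of 3, and 1.31 and 2.79 times at ZT14, below it. The spots of the genotypes overlapped at ZT2 (28.4 to 37.7 units in WT against 22.0 to 31.3 in the mutant). At ZT14 the spots were 3.52 to 8.12 units in WT against 11.2 to 18.9 in the mutant, all below those of the same genotype at ZT2. Probe A_54_P2112 stood at 12.9 and 5.81 units at ZT2 and at 0.12 and 2.26 at ZT14, never above its limit. Probes A_54_P2109 and A_54_P2110 averaged below 0 on all 4 arrays, from -10.8 to -5.70 units and from -9.73 to -9.04 units. Negative control spots averaged 6.60 and 5.65 units at ZT2 and 9.53 and 9.27 units at ZT14, in WT and mutant.

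The mean over the 4 probes of mmu-miR-712 was 7.51 units in WT against 2.85 in the mutant at ZT2, a scaled log2 ratio of -1.31. That is a 2.47-fold lower level, and the spot SD of the ratio was 2.28. This SD is the spread of single spots, which is wider than the error of a mean over spots. On the detected probe alone the scaled log2 ratio was -0.22 (spot SD 0.27), under 1.5-fold. At ZT14 the mean over probes was below 0 in both genotypes, at -2.99 units in WT against -0.70 in the mutant, and no genotype ratio was formed. Against the lowest detected level above 0 of the ZT14 arrays, mmu-miR-712 was at least 1.58-fold higher at ZT2 than at ZT14 in WT and at least 1.52-fold higher in the mutant. Those lowest levels, 3.02 and 1.99 units, lay below the mean of the negative controls, and with the floor at that mean no bound remained.

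mmu-miR-805 was also detected through 1 probe, on all 4 arrays. Probe A_54_P2190 averaged 39.7 ± 2.80 units in WT against 29.8 ± 3.67 in the mutant at ZT2; at ZT14 it was 24.9 ± 2.49 in WT against 29.97 ± 2.09 in the mutant (SD, n = 5 spots). Its total signal was 6.72 and 4.96 times its error at ZT2, and 4.60 and 4.91 times at ZT14. WT at ZT2 was the high array, with spots from 35.8 to 42.6 units and no overlap with the mutant spots (25.7 to 34.8) or with WT at ZT14 (22.0 to 26.8). The mutant spots at ZT14 (26.7 to 32.2) overlapped those of the mutant at ZT2. Scaling changed the direction of the genotype difference on this probe at ZT14. The log2 ratio of mutant to WT was -0.41 at ZT2 and 0.27 at ZT14 before scaling, and -0.32 at ZT2 (spot SD 0.20) and -0.39 at ZT14 (spot SD 0.18) after it. Between the WT arrays, ZT14 stood at a log2 ratio of -0.67 to ZT2 before scaling and at -0.01 after it (spot SD 0.18). In the mutant the scaled ratio was -0.08 (spot SD 0.20), against 0.0082 before scaling. Probes A_54_P2187 and A_54_P2188 averaged below 0 on all 4 arrays, and probe A_54_P2189 lay between -1.73 and 3.24 units.

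The mean over all 4 probes of mmu-miR-805 was 7.06 units in WT against 3.13 in the mutant at ZT2; at ZT14 it was 3.02 in WT against 4.52 in the mutant. The value in WT at ZT14 was the lowest level above 0 among the detected miRNAs on that array. The scaled log2 ratio of mutant to WT was -1.08 at ZT2 (2.12-fold lower, spot SD 1.52) and -0.07 at ZT14 (spot SD 2.08; 0.58 without scaling). The ratio of ZT14 to ZT2 was -0.57 in WT (spot SD 1.75) and 0.44 in the mutant (spot SD 1.89). All 4 ratios were smaller than the spread of single spots, which is wider than the error of a mean over spots.

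mmu-miR-715 stayed under the detection limit on every array, but not by much. Probe A_54_P2127 averaged 12.0 ± 1.5 units in WT against 11.8 ± 2.42 in the mutant at ZT2; at ZT14 it was 11.1 ± 0.83 in WT against 16.1 ± 3.44 in the mutant (SD, n = 5 spots). Its total signal was 2.65, 2.22, 2.25 and 2.89 times its error on these arrays, each under 3. The other 3 probes averaged between -0.29 and 10.3 units. The level of mmu-miR-715 over 4 probes was 6.10 and 6.19 units at ZT2 and 4.96 and 6.60 units at ZT14, in WT and mutant. Although undetected, it lay above the level of mmu-miR-805 on every array except WT at ZT2. No ratio was formed for mmu-miR-715. The entry mmu-miR-712*, the other arm of the mmu-miR-712 entry, was not detected on any array, and its level over 4 probes was between -6.04 and -3.35 units.

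**Figure D2:**
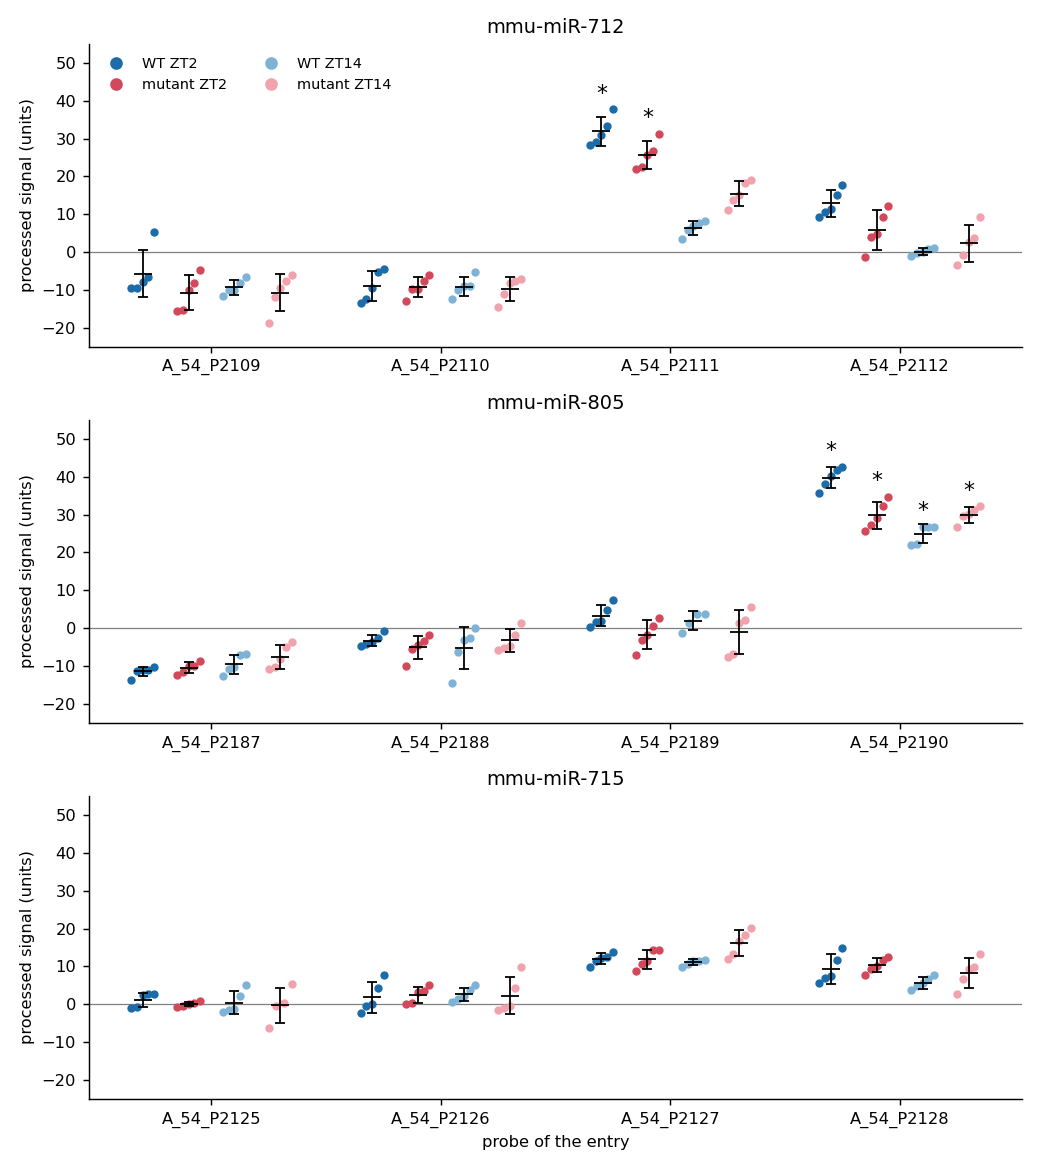
Processed signal of the spots without an outlier flag (vertical axis, units) for the 4 probes of mmu-miR-712, mmu-miR-805 and mmu-miR-715, with colours for the 4 arrays and black marks for the mean and SD of the spots; an asterisk marks a probe above 3 times its error. Asterisks stand over 1 probe of mmu-miR-712 at ZT2, over 1 probe of mmu-miR-805 on all 4 arrays and over none of mmu-miR-715.

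Detection through 1 of 4 probes was uncommon on these arrays. It applied to 14 of 193 detected mouse miRNAs in WT against 8 of 161 in the mutant at ZT2, and to 4 of 138 in WT against 7 of 142 in the mutant at ZT14. mmu-miR-712 and mmu-miR-805 were among them wherever they were detected.

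At a threshold of 2-fold, 2 of the 4 entries were lower in the mutant at ZT2, mmu-miR-712 and mmu-miR-805, and 0 were higher. Over all 194 miRNAs detected on at least 1 of these arrays, 8.25% were at least 2-fold lower and 0.0% at least 2-fold higher. Such shares include miRNAs detected on only 1 of the arrays compared, whose ratios are bounds. Among the 160 miRNAs detected on both arrays at ZT2, 1 had a lower ratio than mmu-miR-712 and 2 had a lower ratio than mmu-miR-805. The calls of both entries ended with the sum over detected probes (log2 ratios -0.22 and -0.32). That sum leaves out the 3 probes of each entry that were under the detection limit, which the mean over probes includes. mmu-miR-715 had no ratio in any comparison and could not be counted. Between genotypes at ZT14 mmu-miR-712 had none either, and 0 of the other entries passed 2-fold. In that comparison 13.4% of 157 miRNAs were lower and 0.0% higher. Between time points 0 of the 4 passed in WT, against 6.7% of 194 miRNAs lower and 1.03% higher at ZT14. In the mutant 0 passed, against 13.5% of 163 lower and 0.0% higher. Without scaling, 3 of the 4 were at least 2-fold lower at ZT14 in WT, with log2 ratios of -1.01 for mmu-miR-720 and -1.23 for mmu-miR-805 and a bound of -1.32 for mmu-miR-712. On that scale 30.4% of the 194 miRNAs were at least 2-fold lower, and the median unscaled log2 ratio of the 123 miRNAs was -0.79.

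**Figure D3:**
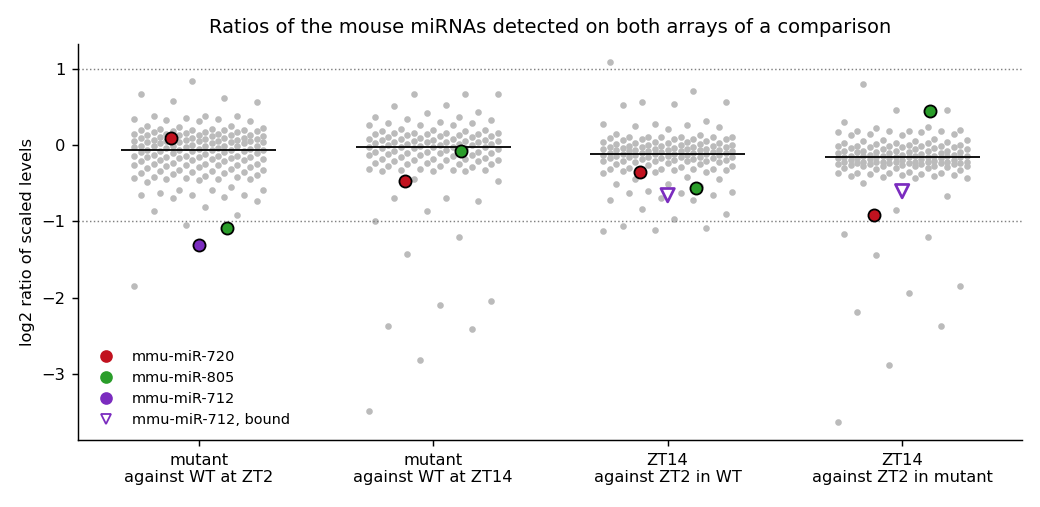
Scaled log2 ratios (vertical axis) in the 4 comparisons (horizontal axis); grey points are the other mouse miRNAs detected on both arrays, black lines the medians, filled circles the members, open triangles the bounds of mmu-miR-712, and dotted lines 2-fold. mmu-miR-712 (-1.31) and mmu-miR-805 (-1.08) lie past 2-fold at ZT2, and mmu-miR-720 lies at -0.91 from ZT2 to ZT14 in the mutant, where mmu-miR-712 has only a bound (at most -0.60) and no place in the order.

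Genotype and time point were tested with both fitted together over the 4 arrays. In limma with Benjamini-Hochberg adjustment over the 123 miRNAs, 0 miRNAs were called for genotype (0.0%) and 0 for time point (0.0%). The unadjusted p was under 0.05 for 10 miRNAs in the genotype term and for 12 in the time point term. mmu-miR-720 differed by -0.63 on the log2 scale between ZT14 and ZT2 (standard error 0.19, limma adjusted p = 0.396, with an unadjusted p of 0.029), with the lower value at ZT14 in both genotypes. For genotype it differed by -0.19 (standard error 0.19, limma adjusted p = 0.729). mmu-miR-805 differed by -0.58 for genotype (standard error 0.28, limma adjusted p = 0.462) and by -0.06 for time point (standard error 0.28, limma adjusted p = 0.934). For each miRNA 1 residual degree of freedom was left. With each term fitted alone, which left 2, limma again called 0 miRNAs for either term, and mmu-miR-720 had an adjusted p of 0.477 for time point. The call of mmu-miR-720 for time point appeared with normexp background correction (adjusted p = 0.013 from limma), where 2.44% of the 123 miRNAs were called. It also appeared when the WT array at ZT14 was left out and time point was fitted alone (adjusted p = 0.0084 from limma), where 10.6% of the 123 miRNAs were called and the lone array at ZT14 is assumed to vary like the others.

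The scanner's own summed signal per miRNA did not hold the same quantity as the probes for the dim entries. For mmu-miR-720 the summed signal equalled the sum of its 2 probe totals on all 4 arrays. For mmu-miR-712 it was 820 units in WT against 665 in the mutant at ZT2, while its detected probe summed to 10.8 and 8.60 units, so that the summed signal was 75.8-fold and 77.3-fold larger. The difference, 809 units in WT against 656 in the mutant, equalled the summed signal of mmu-miR-709 on the same array. mmu-miR-805 had summed signals of 107 and 109 units at ZT2 and 46.9 and 112 units at ZT14, in WT and mutant, against 13.5, 10.01, 8.76 and 10.67 units from its own detected probe. On each of the 4 arrays the difference equalled the summed signal of mmu-miR-802, with 93.8 units in WT against 99.1 in the mutant at ZT2; at ZT14 it was 38.1 in WT against 101 in the mutant. The 2 numbers were taken as equal within 1e-05 of the summed signal. The unscaled log2 ratio of mutant to WT of mmu-miR-805 at ZT14 was 1.25 by the summed signal (2.38-fold higher) and 0.28 by its own probe (1.22-fold higher). The authors' log2 table does not carry the added amount: for every detected miRNA its value equalled the log2 of the sum of the detected probes plus 1 number per array, within 0.001.

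**Figure D4:**
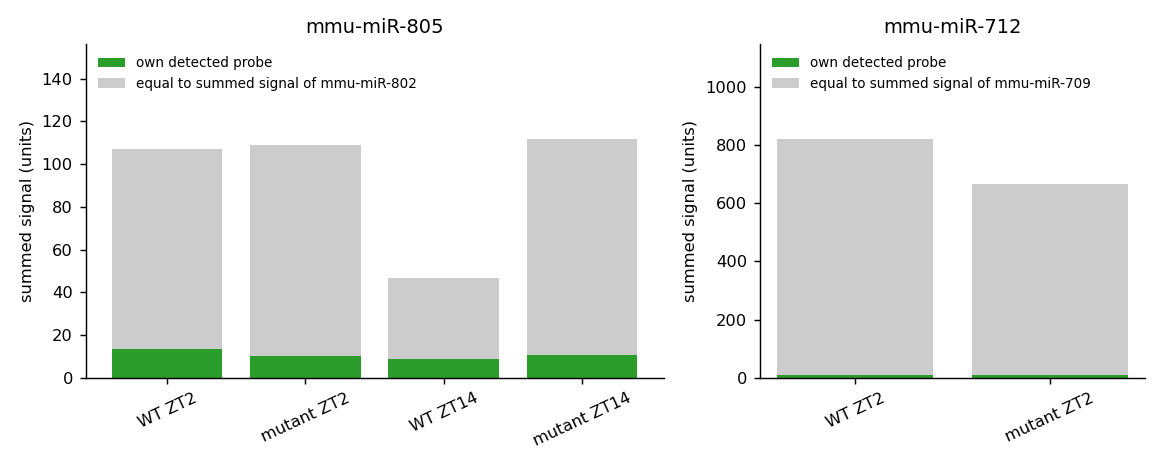
Summed signal per miRNA as the scanner gave it (bar height, units, from 0), by array, for mmu-miR-805 on 4 arrays and mmu-miR-712 on the 2 arrays where it was detected; green is the entry's own detected probe and grey the amount equal to the summed signal of mmu-miR-802 or mmu-miR-709. The green part is 8.76 to 13.5 units for mmu-miR-805 and 8.60 to 10.8 units for mmu-miR-712.

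The ratios of all 3 detected entries moved with the processing. The log2 ratio of mutant to WT at ZT2 of mmu-miR-712 went from -1.31 to -0.56 with quantile normalization (floor of 1 unit). That of mmu-miR-805 went from -1.08 to -0.33. With normexp the 2 ratios were -0.016 and 0.010. Its offset of 50 units compares with levels of 2.85 to 7.51 units for these 2 entries at ZT2. Such an offset narrows the ratios of dim entries whatever their difference, so these normexp values do not test it. The ratio of mmu-miR-720 at ZT2 went from 0.09 to -0.060 with the brightest probe only. At ZT14 the log2 ratio of mutant to WT of mmu-miR-720 ran from -0.52 to 0.36 over 15 alternatives, below 0 in 10 and above 0 in 4. It was above 0 without scaling (0.19), with scaling to the 75th percentile of all mouse entries (0.05), with spike-in control probes (0.36) and in the authors' table (0.21), and it was 0.00 with quantile normalization, which gave mmu-miR-720 the same rank on all arrays. The lower level of mmu-miR-720 at ZT14 in the mutant kept its sign in 13 of 14 alternatives, the exception being quantile normalization at 0.00. In WT it kept its sign in 12 of 14, with 0.00 for quantile normalization and 0.04 where detection was called from spots well above background. Among those 12, the WT value was -0.06 with the 75th percentile of all mouse entries and -0.13 with scaling to the median. The sum over detected probes and the floor at the negative controls could not change these ratios, as both probes of mmu-miR-720 were detected on every array.

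**Figure D5:**
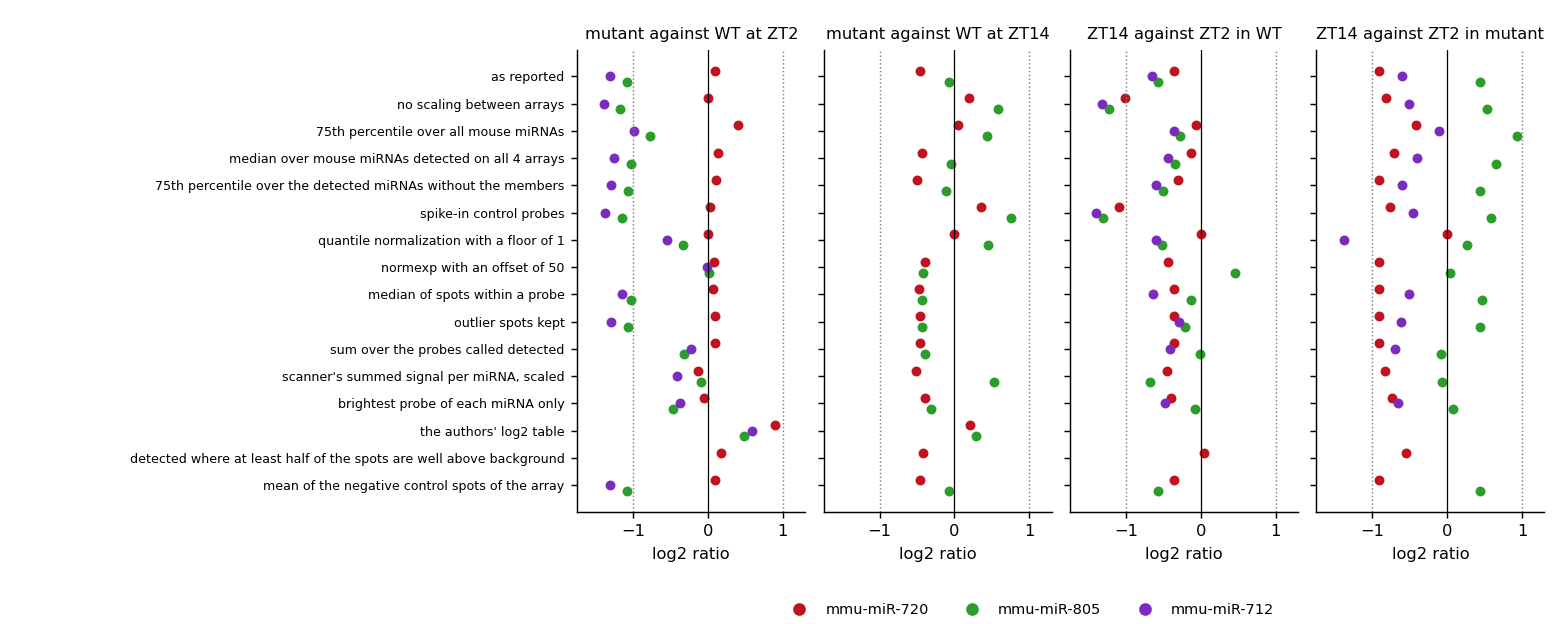
Log2 ratios (horizontal axes, 4 panels for the 4 comparisons) of mmu-miR-720, mmu-miR-805 and mmu-miR-712 under each processing setting (vertical axis); dotted lines are 2-fold, and bounds of mmu-miR-712 between time points are drawn as points. Not drawn are the bounds of mmu-miR-712 from the scanner's summed signal between time points, -5.71 in WT against -5.59 in the mutant.

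Array entries numbered mmu-miR-680 to mmu-miR-720, 43 in all, include 3 of the 4 members. Of the other 40, 7 were detected on at least 1 array: mmu-miR-689, mmu-miR-690, mmu-miR-697, mmu-miR-702, mmu-miR-705, mmu-miR-706 and mmu-miR-709. Their scaled log2 ratios of mutant to WT ran from -0.86 to 0.05 at ZT2, 5 of 7 below 0, and from -2.36 to -0.23 at ZT14, 5 of 5 below 0. The median over all miRNAs detected on both arrays was -0.07 at ZT2 and -0.03 at ZT14, so values below 0 were common over all miRNAs too. mmu-miR-706, whose sequence is printed above, was the 1 numbered entry besides the members with a value past 2-fold. It stood at -2.36 between genotypes at ZT14 and at -2.18 between time points in the mutant. mmu-miR-689 lay just short of 2-fold between genotypes at ZT14, at -0.999. Between time points the 5 detected on both WT arrays ran from -0.63 to 0.70, and the 6 detected on both mutant arrays from -2.18 to -0.01. mmu-miR-697 and mmu-miR-705 were not detected in WT at ZT14, which gives bounds of -0.30 and -0.99, and mmu-miR-705 was not detected in the mutant at ZT14, a bound of -0.49.

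The miRNAs whose scaled log2 levels ran most like those of mmu-miR-720 over the 4 arrays, by Euclidean distance after each profile was centred on its mean, were mmu-miR-106b (0.35), mmu-miR-29c (0.40) and mmu-miR-362-3p (0.40). The median distance over 122 miRNAs was 0.66. The centred profile of mmu-miR-720 was 0.27 in WT against 0.36 in the mutant at ZT2; at ZT14 it was -0.08 in WT against -0.55 in the mutant. The profile of mmu-miR-106b was 0.21 (WT) and 0.17 (mutant) at ZT2, and -0.12 (WT) and -0.27 (mutant) at ZT14. For mmu-miR-805 the closest were mmu-miR-143 (0.42), mmu-miR-342-3p (0.43) and mmu-miR-331-3p (0.43), with a median distance of 0.83. The profile of mmu-miR-805 is that of the mean over its 4 probes, of which 3 were under the detection limit. On its detected probe WT at ZT14 was level with WT at ZT2 after scaling (-0.01), so the likeness rests on the other 3 probes as well. Likeness over 4 arrays is a description, and these profiles share the same arrays and scaling.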

How the data were processed

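Per the labels, RNA of 3 mice was pooled for each of 4 arrays. The authors deposited scanner output of Agilent Feature Extraction 10.7.1.1, with a background-subtracted intensity per spot, outlier flags, totals with errors per probe and per miRNA, and a detection call. No step in it makes arrays comparable. They also deposited a log2 value per miRNA, which for detected miRNAs equalled the log2 sum of the detected probes plus -4.18 (WT) and -3.27 (mutant) at ZT2 and 3.32 on both arrays at ZT14. Its columns were therefore not compared across time points, and the study's methods name a preprocessing package for Agilent arrays, without its settings or the normalization used.

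Spots without outlier flags were averaged per probe, probes were averaged per entry, and the result was divided by the array's 75th percentile of the 123 mouse miRNAs that all 4 arrays detected. Where 1 of 2 arrays detected an entry, the log2 ratio is a bound against the higher of its own level and the lowest detected level. With 1 array per condition, ratios of 2 arrays have no test, and the number of arrays limits the precision. limma 3.58.1 (R 4.3.3), tested on simulated data, fitted genotype and time point together. Other steps used numpy 2.4.6 and pandas 2.3.3 under Python 3.11.15, and figures matplotlib 3.10.9.

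The rule for the members uses entry names alone, but this group of entries and the lists were picked with earlier results of these data known. Named are the 4 entries and their probes, mmu-miR-712*, the numbered entries as counts and ranges, the 3 closest profiles of each entry detected on all arrays, and mmu-miR-122. The detected numbered entries, mmu-miR-802 and mmu-miR-7a were named after their values were seen. Alternatives covered scaling, background, combination of probes, detection, floor, threshold, covariates, and leaving out each array.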

Additional observations from a re-analysis of the deposited data

Results flagged for a closer look

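mmu-miR-720 had scaled log2 ratios of mutant to WT of opposite sign at the 2 time points, 0.090 at ZT2 and -0.47 at ZT14. mmu-miR-805 had scaled log2 ratios of ZT14 to ZT2 of opposite sign in the 2 genotypes, -0.57 in WT and 0.44 in the mutant. Neither difference was tested, because 4 arrays with 1 per condition leave 0 residual degrees of freedom for it. The value at ZT14 for mmu-miR-720 was 0.19 without scaling. Both values for mmu-miR-805 were smaller than the spread of its single spots, with -0.01 and -0.08 on its detected probe alone.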

How the results depend on the processing

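No paired analysis was possible because there is only 1 array for each genotype at each time, so no replicate numbers can pair arrays. The count of entries at least 2-fold apart between genotypes at ZT2 was 2 (8.25% of all miRNAs lower). It was 0 with scaling to the 75th percentile of all mouse entries (5.15%), quantile normalization (2.58%), normexp (0.515%) and the sum over detected probes (13.4%). It was also 0 with the scanner's summed signal (17.0%), the brightest probe (3.09%), the authors' log2 table (4.64%) and the 3-fold threshold (4.12%). With the 75th percentile of all mouse entries, mmu-miR-712 lay just short of 2-fold, at -0.997. The 3-fold threshold lay above the folds of both entries, 2.47 for mmu-miR-712 and 2.12 for mmu-miR-805. Shares higher were 8.76% with the summed signal, 13.9% in the authors' table and at most 1.03% in the others listed here. With detection from spots well above background the count was 0 (1.47% of 136), but mmu-miR-712 and mmu-miR-805 had no ratio there. mmu-miR-805 turned to 0.010 with normexp, whose offset of 50 units is larger than the level of that entry. In the authors' table mmu-miR-712 turned to 0.59 and mmu-miR-805 to 0.49. For detected miRNAs that table holds the log2 sum of the detected probes plus 1 number per array. At ZT2 this number was -4.18 for the WT array and -3.27 for the mutant array. It raises the ratio of every miRNA detected on both arrays by the same amount. Without it the unscaled log2 ratios of the detected probes were -0.33 for mmu-miR-712 and -0.43 for mmu-miR-805. Between time points in WT the count, 0, was 3 without scaling (30.4% of all miRNAs lower), 3 with spike-in scaling (39.2%), 1 with the summed signal (25.3%) and 1 at 1.5-fold (21.1%). In the mutant the count, 0, was 1 with quantile normalization (11.7%), 1 with the summed signal (16.0%) and 2 at 1.5-fold (16.6%). The count between genotypes at ZT14 was 0 throughout, where 3.82% to 17.8% of all miRNAs were lower and 0.0% to 20.4% higher. At most mmu-miR-720 and mmu-miR-805 had a ratio in that comparison. Entries detected on all 4 arrays numbered 1 in place of 2 with detection from spots well above background. limma tested mmu-miR-720 and mmu-miR-805, and mmu-miR-712 only where miRNAs detected on at least 1 array were kept, but never mmu-miR-715. With all 4 arrays it called 0 of these entries for genotype under every alternative. Over all miRNAs those alternatives called 0 to 79, the 79 of 123 being in the authors' table. For time point, again with all 4 arrays, it called mmu-miR-720 with normexp (2.44% of all miRNAs) and 0 entries otherwise. With 1 array left out, mmu-miR-720 differed by -0.87 to -0.40 between time points. Except where stated, the cause was not tested. Precision is limited by signal: the lowest detected levels above 0, 1.99 to 3.02 units, lay below the mean of the negative controls, 5.65 to 9.53 units.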

Other observations

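The added amount in the scanner's summed signal was not particular to mmu-miR-712 and mmu-miR-805. Counts were summed over the 4 arrays, so that an entry counts once for each array that detected it. There were 178 pairs of detected entry and array with at least 1 undetected probe. In a separate count over all detected entries, the summed signal exceeded the sum of the detected probes by more than a small set margin in 157 pairs. In 157 of these 157 the excess equalled the summed signal of the detected entry that precedes it in order of name. Some amounts were stacked: in the mutant, mmu-miR-802 had 17.8 units from its own detected probe at ZT2 and 17.7 at ZT14, and the rest of its summed signal, 81.3 and 83.2 units, equalled that of mmu-miR-7a. The summed signal of mmu-miR-805 on those arrays thus held the signals of at least 3 entries. In WT the summed signal of mmu-miR-802 was that of its own probes, 93.8 units at ZT2 and 38.1 at ZT14.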
